A study of Mus musculus with 8 samples.

Results

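The genes of the constitutive proteasome and its regulators were examined in mouse germinal centre B cells with intact or floxed Irf8. They were taken by name: symbols running from Psma to Psmg followed by a numeral, without the immunoproteasome genes Psmb8, Psmb9 and Psmb10. This gave 46 of the 23471 entries of each deposited table, of which 16 belong to the 20S core (Psma and Psmb), 21 to the 19S regulatory particle (Psmc and Psmd) and 9 to the activators, the inhibitor and the assembly chaperones (Psme, Psmf and Psmg). The rule uses names only. The name pattern also takes in Psmc3ip, which encodes a meiotic recombination factor and not a subunit, and its values are given apart where they matter.

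Germinal centre B cells arise from B cells that have met antigen and refine their antibodies by mutation and selection. Here they were sorted as B220+ cells with high FAS and high GL7 from C57BL/6 mice on day 13 of a response to NP-KLH, a carrier protein bearing a hapten. Ctrl mice were Irf8+/+ and Irf8 cKO mice were Irf8flox/flox, and both groups carried the same Cre allele, which is active in the B lineage. There were 2 experiments, with 1 library of each genotype in either, and the remaining 4 samples of the series, B cells activated with lipopolysaccharide, were not analysed here. The labels do not say whether libraries came from separate or pooled animals, and the age of the mice was not given in the sources used here, so p-values measure only the spread between these samples, which may be technical.

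The proteasome is the main protease of the cytosol and nucleus and degrades proteins tagged with ubiquitin. Its barrel-shaped 20S core consists of outer rings of alpha subunits, which gate the entry, and inner rings of beta subunits, of which Psmb5, Psmb6 and Psmb7 carry the constitutive active sites. The 19S particle caps the barrel, binds and removes ubiquitin chains and unfolds substrates with the Psmc ATPases. In lymphocytes the core can be built with the immunoproteasome subunits Psmb8, Psmb9 and Psmb10 in place of the constitutive active sites and can be capped by the Psme1 and Psme2 activator, which serves the production of peptides for MHC class I.

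Irf8, the gene the cross targets, measured 14.5 RPKM (reads per kilobase of transcript and mega mapped reads) in Ctrl 1, 14.9 in Ctrl 2, 20.6 in the library labelled cKO 1 and 11.6 in that labelled cKO 2. It was thus not lower across the libraries labelled cKO, and since each value covers all exons it does not check the deletion. All directions below are those of the labels. Read totals estimated from the spacing of low values ran from 63.2 to 76.1 M (M, mega), of which annotated exons outside 45S ribosomal RNA took 13.2% and 11.8% in Ctrl against 11.0% and 7.33% in the libraries labelled cKO. Genes at 1 RPKM or more numbered 6434 to 6567 in Ctrl, 6172 in Irf8 cKO 1 and 4846 in Irf8 cKO 2, which therefore stood apart. The median tested proteasome gene rested on an estimated 934 and 593 reads in Ctrl against on 697 and 287 in the libraries labelled cKO, and these estimates depend on approximate transcript lengths. The labelled cell type was checked on 7 germinal centre markers, which summed to 156 to 174 RPKM in Ctrl against 88.6 to 140 RPKM in the libraries labelled cKO. The 8 myeloid markers summed to 65.9 and 7.74 RPKM in Ctrl against 17.0 and 2.35 in the libraries labelled cKO. S100a8 and S100a9 passed the limma test given below as lower in the deposited values, as did 1.1% of all tested genes. Their groups overlapped all the same. S100a8 measured 26.0 and 1.69 RPKM in Ctrl against 3.54 and 0.477 in the libraries labelled cKO. S100a9 measured 21.8 and 2.26 RPKM in Ctrl against 3.64 and 0.575, and Cd14 was at 0 in all 4 libraries. The 6 T cell markers summed to at most 0.324 RPKM, with Cd3g at 0 in all 4 libraries. The part that any of these differences has in the proteasome results was not tested.

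Most core and 19S genes were among the better expressed genes of these cells, and the core stood above the cap. In Ctrl the median level was 10.1 RPKM over the 14 measurable 20S genes, 5.58 RPKM over the 20 measurable 19S genes and 2.95 RPKM over the 8 measurable activator, inhibitor and chaperone genes, against 2.82 RPKM over all 6447 genes tested. A gene was measurable and tested when it reached 1 RPKM in at least 2 of the 4 libraries, which 42 of the 46 did. Psme1, which encodes the alpha subunit of the interferon-inducible activator PA28, was the highest at 33.8 ± 5.92 RPKM (mean ± SD, n = 2), above 97.6% of tested genes. Psmf1, which encodes the inhibitor PI31, was the lowest tested at 1.58 ± 0.130 RPKM. Levels within the core spanned a 3.41-fold range, from Psmb5 at 5.74 RPKM to Psma2 at 19.6 RPKM, although subunits of the core are present in equal numbers in the particle. Levels of 19S genes spanned a 5.82-fold range and those of the third group a 21.4-fold range. Psmd3, Psmd5, Psmf1, Psmg1, Psmg2 and Psmg3 lay below the median of all tested genes in Ctrl.

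The 4 members outside the test were low in every library. Psma8, the alpha subunit of the spermatocyte proteasome, was listed at 0 in 3 libraries and at 0.0552 RPKM in Irf8 cKO 2. Psmb11, the catalytic subunit of the thymic proteasome, did not exceed 0.00742 RPKM in any library. Both are tissue-specific subunits and were at or near 0 in these B cells. Psmd9, an assembly chaperone of the 19S base, ran from 0.367 to 1.04 RPKM, and Psmg4, a chaperone of core assembly, from 0.677 to 1.58 RPKM.

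**Figure D1:**
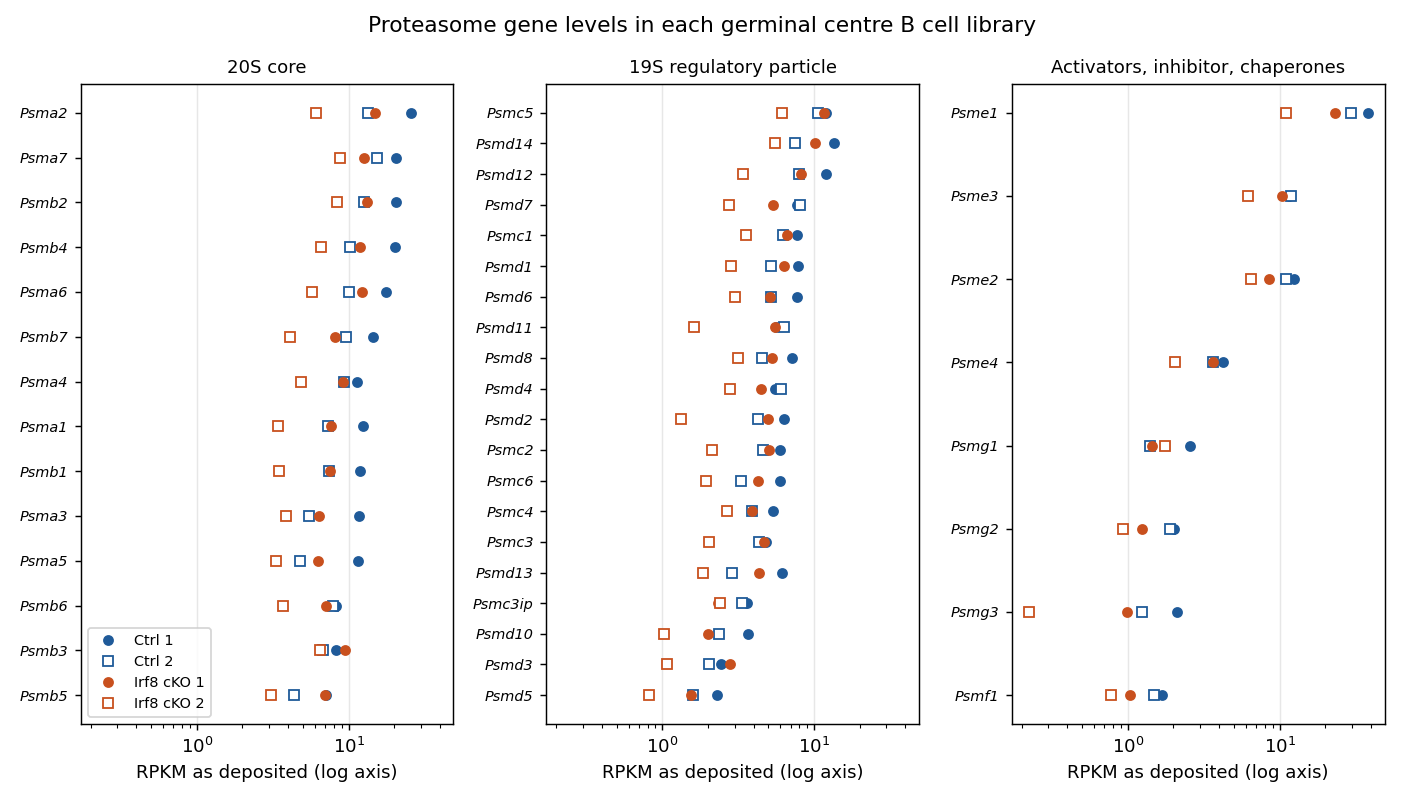
RPKM as deposited (log axis) of the 42 tested proteasome genes in each of the 4 libraries, by group and sorted by the Ctrl mean; circles are experiment 1, squares experiment 2, blue Ctrl and orange Irf8 cKO. The library labelled Irf8 cKO 2 is the lowest for every gene but Psmc3ip and Psmg1, and the values of Psmb3 interleave between 6.46 and 9.46 RPKM.

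The comparison of the libraries labelled cKO with Ctrl asks how the genes behave when Irf8 is targeted. No member passed the test: 0 of 42 fell and 0 rose, where 1.1% of all tested genes fell and 0.0931% rose (limma on log2(RPKM + 1) with the experiment as a block, Benjamini-Hochberg threshold 0.05). At an unadjusted p under 0.05, 13 members were lower and 0 higher, against 18.6% and 0.264% of all tested genes. That count rested on the fit: without the block 3 members were lower, against 6.76% of all tested genes. Fits that leave out 1 library have no block either, since 3 libraries with a block leave no residual degree of freedom. At the same p, 0 members were lower without Ctrl 1 (0.481% of all tested genes), 1 without Ctrl 2 (1.41%), 30 without Irf8 cKO 1 (44.2%) and 0 without Irf8 cKO 2 (2.7%). The lowest adjusted p of a member was 0.0547, for Psmg3. Since the estimated prior degrees of freedom were infinite, the SE of a gene was that of the fitted trend at its level and not its own. Without Irf8 cKO 1 and without the block, in a fit that leaves Irf8 cKO 2 alone in its group and assumes that it varies like Ctrl, 18 members were called lower at the adjusted threshold, and so were 22.5% of all tested genes. With all 4 libraries and no block, 0 members were called. After the scaling described next, the fit without Irf8 cKO 1 called 0 members.

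As deposited, members were lower, but so were nearly all genes. The log2 ratio of Irf8 cKO over Ctrl was below 0 in 41 of 42 members (97.6%) and in 92.4% of all tested genes, and both libraries labelled cKO lay below both Ctrl libraries for 19 members and for 44.7% of all tested genes. They lay above both for 0 members and for 1.19% of all tested genes. The ratio was below 0 in both experiments for 39 members and for 71.2% of all tested genes. The median log2 ratio was -0.56 over members and -0.35 over all tested genes. In experiment 1 these medians were -0.41 and -0.18, and in experiment 2 they were -0.69 and -0.51. For a single gene in bulk RNA, a smaller share of cells of a type and less of its RNA per cell cannot be told apart. RPKM is relative to all mapped reads. Annotated exons outside 45S ribosomal RNA took 13.2% and 11.8% of reads in Ctrl against 11.0% and 7.33% in the libraries labelled cKO. The entry of 45S ribosomal RNA, Rn45s, measured 9085 and 5887 RPKM in Ctrl against 8589 and 16716 RPKM in Irf8 cKO 1 and 2. Its groups overlapped, and Irf8 cKO 2 was the highest. The part of these values in the shift of all genes was not tested.

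A second scale removed the shift of all genes: each library was divided by its median ratio to the geometric mean of the 4 libraries over 6430 genes, with factors of 1.27 and 1.13 in Ctrl against 1.06 and 0.655 in the libraries labelled cKO. On this scale the median log2 ratio was -0.13 over members and 0.0036 over all tested genes, with -0.21 for members in experiment 1 and -0.08 in experiment 2. Ratios below 0 were counted in 33 of 42 members (78.6%) against 49.3% of all tested genes, and ratios below 0 in both experiments in 18 members against 27.3%. Both libraries labelled cKO lay below both Ctrl libraries for 9 members, against 15.4% of all tested genes, and above them for 1 member, against 15.7%. Without Irf8 cKO 2, the library that stood apart, and without the block, 36 of 42 members lay below 0 as deposited, against 72.8% of all tested genes. After scaling 24 did, against 48.0%. The other libraries were left out in the same way on the scaled values. Then 23 members lay below 0 without Ctrl 1, against 48.0% of all tested genes, and 37 without Ctrl 2, against 50.4%. Without Irf8 cKO 1 they numbered 33, against 50.1%. No member passed the test on the scaled values either, where 0.0931% of all tested genes fell and 0.031% rose, and the lowest adjusted p was 0.350. At an unadjusted p under 0.05, 5 members were lower and 1 higher on this scale, against 4.61% and 5.97% of all tested genes.

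By group, the median log2 ratio as deposited was -0.60 for the 20S core, -0.46 for the 19S particle and -0.50 for activators, inhibitor and chaperones. After scaling these medians were -0.16, -0.07 and -0.13, and no test compared the groups. In experiment 1 the core median was -0.62 on the deposited scale and -0.37 once scaled, and in experiment 2 it was -0.73 and -0.02. The 19S particle had medians of -0.37 in experiment 1 and -0.69 in experiment 2 on the deposited scale, which scaling turned to -0.15 and -0.08. Without Psmc3ip the 19S medians were -0.48 as deposited and -0.08 after scaling.

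**Figure D2:**
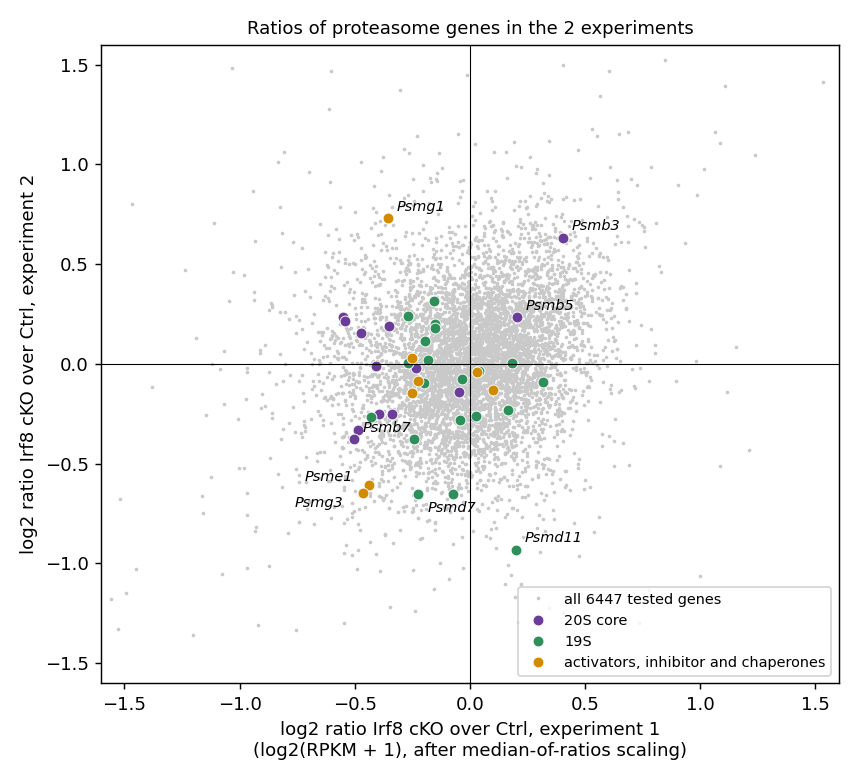
Log2 ratio of Irf8 cKO over Ctrl on log2(RPKM + 1) after median-of-ratios scaling, experiment 1 on the horizontal and experiment 2 on the vertical axis; grey points are all tested genes (those beyond the axes are not drawn) and coloured points the 42 members by group. Of the members, 18 lie in the lower left and 3 (Psmb3, Psmb5 and Psmc5) in the upper right, while Psmd11 and Psmg1 lie far from the diagonal.

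Promoter windows are shown here for 5 members whose values are described below, so that the letters before their starts can be read beside the measurements. Psmb3 and Psmb5 are the core members whose share of the core was higher in both libraries labelled cKO, Psma2 is the highest core gene, Psmd11 is the 19S gene that differed most between experiments, and Psme1 is the highest member. Each run is the 250 bases before the start of transcription, 5′ to 3′ on the gene's own strand, from RefSeq on GRCm38.p6. The windows are chr11:97703184-97703433 on the plus strand for Psmb3, chr14:54617996-54618245 on the minus strand for Psmb5, chr13:14612992-14613241 on the plus strand for Psma2, chr11:80428365-80428614 on the plus strand for Psmd11 and chr14:55578244-55578493 on the plus strand for Psme1. Capitals mark matches to the motifs named after the sequences, on either strand.
Psmb3: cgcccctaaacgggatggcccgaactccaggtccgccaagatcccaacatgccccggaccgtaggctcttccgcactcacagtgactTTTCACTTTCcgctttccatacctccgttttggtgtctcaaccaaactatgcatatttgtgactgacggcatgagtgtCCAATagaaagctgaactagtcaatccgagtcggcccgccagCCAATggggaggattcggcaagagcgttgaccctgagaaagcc
Psmb5: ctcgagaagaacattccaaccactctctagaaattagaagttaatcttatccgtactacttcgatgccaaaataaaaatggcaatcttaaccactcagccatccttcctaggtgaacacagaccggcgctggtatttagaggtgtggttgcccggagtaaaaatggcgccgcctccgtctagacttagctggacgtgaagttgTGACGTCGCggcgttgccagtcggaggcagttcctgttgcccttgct
Psma2: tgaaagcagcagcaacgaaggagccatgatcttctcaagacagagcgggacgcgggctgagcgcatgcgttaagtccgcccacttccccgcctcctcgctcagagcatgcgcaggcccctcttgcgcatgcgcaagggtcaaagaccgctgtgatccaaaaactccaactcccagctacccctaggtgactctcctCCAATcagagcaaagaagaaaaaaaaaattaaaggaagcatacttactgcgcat
Psmd11: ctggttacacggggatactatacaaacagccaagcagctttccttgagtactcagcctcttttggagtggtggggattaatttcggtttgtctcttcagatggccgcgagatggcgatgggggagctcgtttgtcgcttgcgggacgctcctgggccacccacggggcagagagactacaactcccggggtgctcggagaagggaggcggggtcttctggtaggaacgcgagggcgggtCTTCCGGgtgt
Psme1: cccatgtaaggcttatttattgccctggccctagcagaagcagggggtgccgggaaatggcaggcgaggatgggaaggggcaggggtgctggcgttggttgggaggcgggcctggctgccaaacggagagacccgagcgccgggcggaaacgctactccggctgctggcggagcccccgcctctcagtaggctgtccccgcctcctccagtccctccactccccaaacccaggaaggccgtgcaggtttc

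The motifs searched on both strands were the interferon-stimulated response core (GAAA, any 2 bases, GAAA), the composite of ETS and IRF factors (GGAA, any 2 bases, GAAA), the antioxidant response core TGACNNNGC, the CCAAT box and the ETS site CCGGAAG. Of the 46 members, 37 had a RefSeq window starting within 100 bases of the deposited start, 28 of them at the same base. These 37 include Psmd9, Psmb11 and Psmg4, which were not tested, whereas the percentages of tested genes cover tested genes only. The interferon-stimulated response core was found in 3 of 37 members (8.11%), against 2.46% of 4513 tested genes and 2.97% of 32817 RefSeq promoters of the same length. Its holders were Psmb3 and the 19S genes Psmd4 and Psmd9, the last of which was not tested. In Psmb3 it lies 163 to 154 bases before the start on the minus strand and reads GAAAGTGAAA. The composite was found in 0 of 37 windows, against 1.77% of tested genes. The antioxidant response core was found in 5 members (13.5%), against 12.3% of tested genes, and in Psmb5 it lies 47 to 39 bases before the start. CCAAT was found in 12 members (32.4%), against 36.8% of tested genes, and in Psma2 it lies 54 to 50 bases before the start. CCGGAAG was found in 12 members (32.4%), against 18.8% of tested genes. By group it was found in 8 of 17 windows with 19S names, 1 of 12 of the core and 3 of 8 of the third group. Psmc3ip is one of the 8 with 19S names. Psmd11 is another, and there the site lies 11 to 5 bases before the start on the minus strand. The Psme1 window held none of the 5 motifs. Matches of different motifs did not overlap in any member, and a match is a description of letters, not of binding.

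Among the alpha subunits of the 20S core, values ran lower in the libraries labelled cKO, mostly without separating the groups. Psma2 (chromosome 13, 14613242 to 14625673, plus strand, mm10) gave 25.6 RPKM in Ctrl 1 and 13.5 in Ctrl 2, against 15.0 and 6.08 RPKM in Irf8 cKO 1 and 2. Irf8 cKO 1 thus lay between the Ctrl libraries and Irf8 cKO 2 lay below all. The log2 ratio of Psma2 was -0.89 ± 0.35 (SE; limma, adjusted p = 0.191) as deposited and -0.41 ± 0.17 (adjusted p = 0.459) after scaling. Psma1, another alpha subunit, gave 12.5 and 7.30 RPKM in Ctrl against 7.68 and 3.44 RPKM, with a log2 ratio of -0.77 ± 0.33. Of the 7 tested alpha genes, only Psma4 and Psma7 had both libraries labelled cKO below both Ctrl libraries as deposited, where 44.7% of all tested genes did. After scaling only Psma7 did, against 15.4% of all tested genes.

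The 3 constitutive active-site genes differed in their values. Psmb7, the trypsin-like subunit (chromosome 2, 38588046 to 38643906, minus strand), measured 14.4 and 9.58 RPKM in Ctrl against 8.18 and 4.12 RPKM in the libraries labelled cKO. The groups did not overlap, and they did not after scaling, with 11.3 and 8.47 against 7.70 and 6.29 scaled RPKM. The log2 ratio of Psmb7 was -0.90 ± 0.33 (limma, adjusted p = 0.163) as deposited and -0.44 ± 0.16 (adjusted p = 0.400) after scaling. Psmb6, the caspase-like subunit, measured 8.29 and 7.96 RPKM in Ctrl against 7.06 and 3.72 RPKM in the libraries labelled cKO. The groups did not overlap as deposited and overlapped after scaling, with log2 ratios of -0.57 ± 0.33 and -0.12 ± 0.16.

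Psmb5, the chymotrypsin-like subunit and main target of proteasome inhibitor drugs (chromosome 14, 54614120 to 54617995, minus strand), measured 7.13 and 4.36 RPKM in Ctrl against 7.03 and 3.09 RPKM in the libraries labelled cKO. Its groups overlapped on both scales. As deposited the log2 ratio of Psmb5 was -0.20 ± 0.32 (limma, adjusted p = 0.653), and it turned to 0.22 ± 0.15 (adjusted p = 0.652) after scaling, with 0.20 and 0.24 in the experiments. The GENCODE annotation of GRCm38 lists pseudogene copies of Psmb5, Psmb6 and Psmb7, and how the authors' counting treated reads that fit both gene and copy was not given in the sources used here.

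Psmb3, a structural beta subunit without an active site (chromosome 11, 97703434 to 97713500, plus strand), was the one member with a log2 ratio above 0 as deposited. It measured 8.26 and 6.79 RPKM in Ctrl against 9.46 and 6.46 RPKM in the libraries labelled cKO. These values interleaved, and the log2 ratio was 0.06 ± 0.33 (limma, adjusted p = 0.905). After scaling Psmb3 measured 6.50 and 6.00 in Ctrl against 8.91 and 9.86 in the libraries labelled cKO, so that the groups no longer overlapped. The scaled log2 ratio was 0.52 ± 0.16 (limma, adjusted p = 0.389), and the 2 experiments gave 0.40 and 0.63. As deposited, its log2 ratio turned to -0.07 without Ctrl 2 and to -0.19 without Irf8 cKO 1. Psmb1, another structural beta subunit, gave 11.8 and 7.41 RPKM in Ctrl against 7.59 and 3.50 RPKM, with a log2 ratio of -0.74 ± 0.33.

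Ratios of genes within a library do not depend on the scaling of that library. Each core gene was divided by the median of the other 13 core genes, and the share of 3 of the 14 did not overlap between groups: Psmb7 was lower and Psmb3 and Psmb5 were higher in both libraries labelled cKO. With the core median as the divisor, 6.33% of all tested genes were lower without overlap and 22.2% were higher. The median log2 ratio as deposited was -0.60 over the core and -0.35 over all tested genes, so this divisor moves other genes upward. Shares of core genes are centred on the core itself. These percentages therefore cannot say whether 2 higher shares among 14 are more or fewer than usual. The share of Psmb3 was 0.661 and 0.729 in Ctrl against 1.16 and 1.57 in the libraries labelled cKO. In both Ctrl libraries Psmb3 thus lay below the typical core gene, and in both libraries labelled cKO above it. The share of Psmb5 was 0.571 and 0.468 in Ctrl against 0.768 and 0.638, and that of Psmb7 was 1.22 and 1.20 against 0.894 and 0.852. These shares are a description and were not tested with a model, and an exact permutation test of 2 libraries against 2 cannot give a 2-sided p below 0.333.

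The ratio of core to cap was also taken within libraries. The median core gene over the median 19S gene, leaving out Psmc3ip, gave 1.98 and 1.88 in Ctrl against 1.70 and 1.68 in the libraries labelled cKO. The groups did not overlap, and the ratio in the libraries labelled cKO was 0.860 and 0.896 times that of Ctrl in experiments 1 and 2. This ratio was not tested, and it has no share over all genes beside it. Core genes had a median transcript length of 1162.5 bases against 1636 in these 19S genes. Their median log2 ratios were -0.60 and -0.48 as deposited. With a smooth curve of the deposited ratio on length subtracted they were -0.18 and -0.12. In experiment 1 the medians were -0.62 for the core and -0.37 for these 19S genes as deposited, and -0.37 and -0.15 after scaling. In experiment 2 they were -0.73 and -0.70 as deposited, but -0.02 and -0.09 after scaling. The gene-by-gene medians of experiment 2 thus did not place the core below the cap on both scales. The part of length in the ratio of core to cap was not tested.

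Each constitutive active-site gene has an immunoproteasome counterpart that replaces it in the core. Psmb8 over Psmb5 was 3.38 and 4.14 in Ctrl against 1.39 and 1.91 in the libraries labelled cKO, without overlap. Psmb9 over Psmb6 was 4.75 and 2.67 against 2.48 and 4.03, and Psmb10 over Psmb7 was 0.389 and 0.310 against 0.342 and 0.426, both with overlap and opposite directions in the experiments. Psmb8 itself, at 24.1 and 18.0 RPKM in Ctrl against 9.76 and 5.90 in the libraries labelled cKO, fell by 1.34 ± 0.35 on the log2 scale (limma, adjusted p = 0.0176) as deposited and did not pass after scaling (adjusted p = 0.207).

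**Figure D3:**
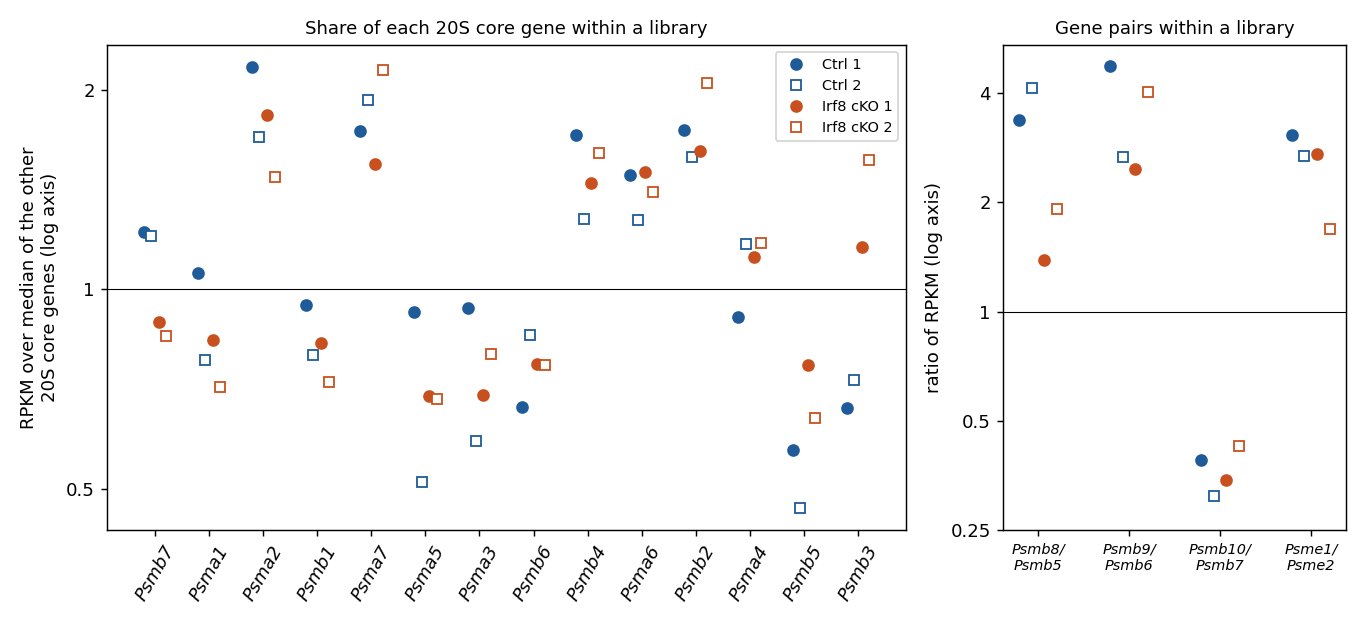
Left, RPKM of each of the 14 core genes over the median of the other 13 within each library (log axis); right, ratios of gene pairs within each library (log axis); circles are experiment 1, squares experiment 2, blue Ctrl and orange Irf8 cKO. Orange lies below blue for Psmb7 and above it for Psmb5 and Psmb3, and Psmb8 over Psmb5 lies between 1.39 and 1.91 in orange and between 3.38 and 4.14 in blue.

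In the 19S particle, leaving out Psmc3ip, 19 of 19 tested genes had a log2 ratio below 0 as deposited, against 92.4% of all tested genes, and 13 of 19 after scaling, against 49.3%. The base is led by the Psmc ATPases. Psmc5, the highest 19S gene, measured 12.0 and 10.6 RPKM in Ctrl against 11.6 and 6.17 RPKM in the libraries labelled cKO. Its values overlapped, and its log2 ratio of -0.37 ± 0.34 as deposited became 0.09 ± 0.16 after scaling. Psmd2, the large base subunit that receives ubiquitin carriers, measured 6.37 and 4.27 RPKM in Ctrl against 5.01 and 1.33 RPKM. Here Irf8 cKO 1 lay between the Ctrl libraries and Irf8 cKO 2 below them, with log2 ratios of -0.29 in experiment 1 and -1.18 in experiment 2.

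The lid subunits Psmd7, Psmd11 and Psmd12 had the ratios of the particle farthest below 0 as deposited. After scaling, Psmd2 at -0.36 and Psmd10 at -0.35 lay below Psmd12 at -0.31. Psmd7, the partner of the deubiquitinase Psmd14 (chromosome 8, 107580380 to 107588482, minus strand), measured 7.76 and 8.09 RPKM in Ctrl against 5.40 and 2.74 RPKM in the libraries labelled cKO. The groups did not overlap on either scale. The log2 ratio of Psmd7 was -0.87 ± 0.32 (limma, adjusted p = 0.159) as deposited and -0.44 ± 0.17 (adjusted p = 0.434) after scaling. Psmd11, a scaffold of the lid (chromosome 11, 80428615 to 80472133, plus strand), measured 5.59 and 6.38 RPKM in Ctrl against 5.52 and 1.63 RPKM in the libraries labelled cKO. A single library, Irf8 cKO 2, set its ratio: the log2 ratio was -0.02 in experiment 1 and -1.49 in experiment 2. Psmd12, also of the lid, measured 11.9 and 7.95 RPKM against 8.25 and 3.40 RPKM, with overlap and a log2 ratio of -0.75 ± 0.33.

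The ratio of the particle closest to 0 as deposited was that of Psmd3, a lid subunit, at 2.44 and 2.04 RPKM in Ctrl against 2.80 and 1.07 RPKM in the libraries labelled cKO. Its log2 ratio of -0.21 ± 0.27 as deposited became 0.11 ± 0.17 after scaling, where it was the 19S ratio farthest above 0. Psmd10, the assembly chaperone gankyrin, measured 3.68 and 2.35 RPKM in Ctrl against 2.01 and 1.02 RPKM in the libraries labelled cKO. The groups did not overlap on either scale, with log2 ratios of -0.68 ± 0.27 (limma, adjusted p = 0.198) and -0.35 ± 0.15 (adjusted p = 0.480). Psmd5, another assembly chaperone and the lowest 19S gene, measured 2.31 and 1.58 RPKM against 1.54 and 0.817 RPKM, and its groups overlapped after scaling. The recombination factor gene Psmc3ip measured 3.62 and 3.34 RPKM in Ctrl against 2.33 and 2.40 RPKM, and its log2 ratio of -0.41 ± 0.29 became -0.01 ± 0.18 after scaling.

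The authors' deposited tables compare 1 library with 1 library in each experiment. In experiment 1 the authors' p was under 0.05 and the ratio lower for 0 members, against 2.87% of all tested genes, and higher for 0, against 1.78%. In experiment 2 it was lower for 2 members, both of the 19S particle, against 1.95% of all tested genes, and higher for 0, against 1.66%. The authors' deposited table of experiment 2 gives Psmd11 a log2 ratio of -1.25 (p = 0.0112) and Psmd2 one of -0.96 (p = 0.0381). In the authors' deposited table of experiment 1 the same genes have log2 ratios of 0.19 (p = 0.627) and -0.14 (p = 0.685). These p-values are read here as unadjusted, and no member was marked in both experiments. Over all tested genes the authors' ratios had medians of -0.043 in experiment 1 and -0.049 in experiment 2. The deposited RPKM values gave -0.18 and -0.51, so the authors' ratios are on another scale. Over members the medians of the authors' ratios were -0.31 and -0.18.

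Among the activators, Psme1 had the ratio farthest below 0 of all members as deposited with the pseudocount of 1. With a pseudocount of 0.1 the chaperone gene Psmg3 lay lower, at -1.54 against -1.06 for Psme1, and it also lay lower after scaling. Psme1 (chromosome 14, 55578494 to 55581527, plus strand) measured 38.0 and 29.6 RPKM in Ctrl against 23.2 and 11.1 RPKM in the libraries labelled cKO. Both libraries labelled cKO lay below both Ctrl libraries, also after scaling, with 29.9 and 26.2 against 21.8 and 16.9 scaled RPKM. As deposited the log2 ratio of Psme1 was -1.02 ± 0.35 (limma, adjusted p = 0.126), and it was -0.52 ± 0.19 (adjusted p = 0.395) on the scaled values. Its partner Psme2, which joins it in the PA28 ring, measured 12.4 and 11.0 RPKM in Ctrl against 8.54 and 6.53 RPKM in the libraries labelled cKO. The log2 ratio of Psme2 was -0.58 ± 0.34 as deposited and -0.11 ± 0.17 after scaling, where its groups overlapped. Psme1 over Psme2 was 3.06 and 2.69 in Ctrl against 2.71 and 1.69 in the libraries labelled cKO, so the ratio of the partners overlapped between groups.

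The nuclear activators showed little displacement once all genes were put on a common scale. Psme3, the PA28 gamma activator, measured 11.6 and 11.9 RPKM in Ctrl against 10.4 and 6.24 RPKM in the libraries labelled cKO. Its log2 ratio of -0.49 ± 0.34 as deposited became -0.02 ± 0.17 after scaling. Psme4, the PA200 activator, measured 4.22 and 3.65 RPKM against 3.63 and 2.03 RPKM, with log2 ratios of -0.39 ± 0.30 and -0.01 ± 0.15. The inhibitor gene Psmf1 measured 1.67 and 1.49 RPKM in Ctrl against 1.04 and 0.774 RPKM in the libraries labelled cKO. Its groups did not overlap on either scale, with log2 ratios of -0.44 ± 0.24 (limma, adjusted p = 0.279) and -0.16 ± 0.15 (adjusted p = 0.752).

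The chaperones of core assembly were expressed at low levels. Psmg3 measured 2.11 and 1.24 RPKM in Ctrl against 0.982 and 0.223 RPKM in the libraries labelled cKO, which rest on an estimated 136 and 69.2 reads against 66.0 and 12.6. The groups did not overlap on either scale. The log2 ratio of Psmg3 was -0.76 ± 0.23 (limma, adjusted p = 0.0547) as deposited and -0.56 ± 0.15 (adjusted p = 0.350) after scaling. With a pseudocount of 0.1 in place of 1 the deposited values of Psmg3 gave -1.54 (limma, adjusted p = 0.102). Psmg1 and Psmg2 form a pair that starts the alpha ring, and they differed in pattern. Psmg1 measured 2.55 and 1.39 RPKM in Ctrl against 1.43 and 1.77 RPKM in the libraries labelled cKO, with log2 ratios of -0.55 in experiment 1 and 0.21 in experiment 2. Psmg2 measured 2.02 and 1.89 RPKM against 1.25 and 0.927 RPKM, without overlap on either scale, with log2 ratios of -0.50 ± 0.25 and -0.20 ± 0.15.

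Other genes of ubiquitin-dependent degradation served as a frame: receptors and deubiquitinases of the proteasome, shuttle factors, ubiquitin genes, activating enzymes and the Nfe2l1 pathway that controls proteasome genes. Of 35 symbols listed, 30 were found and 29 were tested. None passed the limma test on either scale, while 6 of 29 had an unadjusted p under 0.05 as deposited, all of them lower, against 18.6% of all tested genes. After scaling 1 did, against 4.61% of all tested genes lower and 5.97% higher. The lowest adjusted p was 0.198, for Akirin2, which serves nuclear import of proteasomes. As deposited, 29 of 29 had a log2 ratio below 0 with a median of -0.40, against 92.4% of all tested genes, and after scaling 15 of 29 with a median of -0.0044, against 49.3%. The regulator Nfe2l1 measured 2.70 and 2.95 RPKM in Ctrl against 1.91 and 1.53 RPKM in the libraries labelled cKO, with a scaled log2 ratio of -0.14 ± 0.15 (limma, adjusted p = 0.783). Pomp, the maturation factor of the core, measured 36.0 and 24.0 RPKM in Ctrl against 26.3 and 13.3 RPKM, with a scaled log2 ratio of -0.13 ± 0.19 (adjusted p = 0.844).

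Members had a shorter median transcript length than the tested genes, and no slope of the ratio on length was computed. The median length was 1435 bases over members, 1162.5 over core genes, 1613.5 over 19S genes and 1085.5 over activators, inhibitor and chaperones, against 2991.5 over 6384 tested genes with a length. When a smooth curve of the deposited ratio on length was subtracted, the median over members was -0.12, with -0.14 in experiment 1 and -0.15 in experiment 2. For the core it was -0.18, for the 19S particle -0.11 and for activators, inhibitor and chaperones -0.12. After this step 33 of 42 members lay below 0, against 50.0% of the tested genes with a length, and Psmb3, at 766 bases the shortest member, lay 0.53 above the curve.

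**Figure D4:**
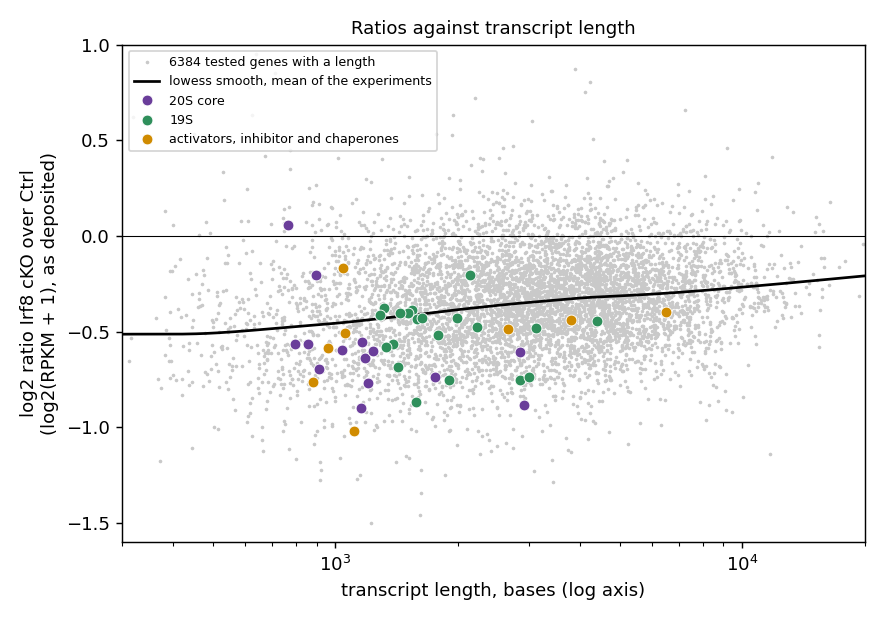
Log2 ratio of Irf8 cKO over Ctrl on log2(RPKM + 1) as deposited against transcript length (log axis, bases); grey points are tested genes with a length, coloured points the 42 members by group, and the line is the smoothed mean of both experiments (points beyond the axes are not drawn). Most members lie left of the bulk of genes and below the line, and Psmb3 is the one member above 0.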

How the data were processed

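Per the labels' protocols, RNA of sorted germinal centre B cells went through Ovation RNA-Seq System v2 amplification and a Nextera XT library step. For either experiment the authors deposited a table of RPKM values per RefSeq gene, made in Wardrobe per the series design text. The aligner of these tables was not given in the sources used here. Names without a role in the submitters' processing notes are mm9, mm10, DESeq, Cuffdiff, Cufflinks 2.2 and TopHat2 2.0. Deposited starts of 28 of 37 members equal those of RefSeq on GRCm38, the assembly of mm10. The authors' tables also hold columns headed LOGR and pvalue, read here as a log2 ratio and an unadjusted p-value. Each table holds 1 Ctrl and 1 Irf8 cKO library, so they are taken as 1 library against 1 library. Amplification and a low exonic share can add noise to low values.

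From these, log2(RPKM + 1) of genes at 1 RPKM or more in at least 2 libraries was fitted with limma 3.58.1 in R 4.3.3 (trended eBayes, 2-sided, block on experiment, leaving 1 residual degree of freedom) and adjusted by Benjamini-Hochberg over 6447 genes. The prior degrees of freedom were infinite as deposited and 6.65 after scaling. The block follows the experiment numbers in the labels, and the deviations of same-numbered libraries from their group means had a correlation of 0.377. Only 70.5% to 72.6% of low values came out as whole reads within 0.1 reads at the estimated depth, so no count test was run. Lengths came from GENCODE, matched by accession for 97.6% of entries and all 46 members. The length curve is a lowess with a fraction of 0.5 (statsmodels 0.14.6). The fit was tested on simulated data. Other steps used matplotlib 3.10.9, pandas 2.3.3 and numpy 2.4.6 in Python 3.11.15.

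Named members are those past the test, the 4 largest and 2 smallest ratios and the highest and lowest level in each group, and a fixed set of active-site, activator, inhibitor, chaperone and tissue-specific genes; Psmb8, Psmb9, Psmb10 and Irf8 stand beside them. Psma4, Psma7, Psmc1, Psmc4, Psmd4, Psmd8, Psmd9, Psmd14, Psmg4, Nfe2l1 and Pomp were named after their values were seen. Members, lists and promoters were chosen with earlier results of these data known. The alternatives were median-of-ratios scaling, a pseudocount of 0.1, no filter, no block, subtraction of the length curve and leaving out each library. The driver of Cre and a list of B cell markers are not reported here.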

Additional observations from a re-analysis of the deposited data

How the results depend on the processing

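No member was called under median-of-ratios scaling, a pseudocount of 0.1, no filter or no block, and of the fits without 1 library, which also have no block, only that without Irf8 cKO 1 as deposited called any (0 to 18 lower). Calls over all genes, 71 lower and 6 higher as deposited, were 6 and 2 after scaling, 0 and 0 without the filter (15559 genes), 0 to 1448 and 0 to 9 without 1 library and without the block. Without the replicate block 19 genes were called lower and 2 higher, and with scaling as well 4 and 2. The block changed no member's call.

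The median log2 ratio of all members was -0.13 after scaling, with or without the block, and -0.12 with the length curve subtracted. For the core it was -0.16 and -0.18, for the 19S particle -0.068 and -0.11, and for activators, inhibitor and chaperones -0.13 and -0.12. A pseudocount of 0.1 gave -0.69 for the core and -0.69 for activators, inhibitor and chaperones. Members minus all tested genes gave -0.21 as deposited, -0.13 after scaling, with or without the block, -0.13 without the length trend, -0.41 without the filter and -0.16 with a pseudocount of 0.1. Over the fits without 1 library, on both scales, the median ran from -0.88 to -0.033 for all members, -1.005 to 0.059 for the core, -0.87 to 0.066 for the 19S particle, -0.73 to -0.071 for activators, inhibitor and chaperones, and -0.31 to -0.044 for members minus all tested genes. So a direction of the core or 19S median did not hold in each of these fits.

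Log2 ratios of 8 members changed sign after scaling, with or without the block: Psmb5 (0.22), Psmc1 (0.0030), Psmc4 (0.012), Psmc5 (0.095), Psmd3 (0.11), Psmd8 (0.024), Psmd14 (0.080) and Psmg1 (0.19). Over the fits without 1 library, on both scales, the ratio ran from -0.19 to 0.58 for Psmb3, -0.69 to 0.44 for Psmb5, -0.46 to 0.26 for Psmc3ip, -0.78 to 0.19 for Psmc5, -1.41 to 0.049 for Psmd11, -1.42 to 0.093 for Psmd2, -0.65 to 0.35 for Psmd3, -0.75 to 0.028 for Psme2, -0.82 to 0.079 for Psme3, -0.70 to 0.048 for Psme4 and -0.45 to 0.52 for Psmg1. The cause was not tested. Leaving out Psmc3ip, an alternative chosen after seeing the data, moved the median of all members to -0.56 and that of the 19S particle to -0.48. Depth limits the chaperone genes most, with an estimated 12.6 reads for Psmg3 in Irf8 cKO 2.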
